A study of Mus musculus with 8 samples.

Results

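F-box proteins are the subunits by which SCF ubiquitin ligases (built from SKP1, a cullin, an F-box protein and a RING protein) select what they ubiquitinate. Their mRNAs were examined in mouse tibialis anterior (TA) muscles with and without siRNAs against *Uba1*, the E1 enzyme at the top of the ubiquitin cascade. Members were all gene symbols of the deposited table that begin with Fbxl, Fbxo or Fbxw and a digit, without pseudogenes. *Fbxo32*, *Fbxo30*, *Fbxo21* and *Fbxo40*, known for their part in muscle wasting, were set aside. This name rule gave 74 of the 41709 listed genes, with 19 *Fbxl* (leucine-rich repeats), 32 *Fbxo* (other domains) and 23 *Fbxw* (WD40 repeats). It used no measured value. Of the 74, 73 are annotated as protein coding, whereas *Fbxl12os* is a long non-coding RNA on the strand opposite to *Fbxl12*.

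An SCF ligase receives ubiquitin in a relay. The E1 enzyme UBA1 activates ubiquitin and passes it to an E2 enzyme such as CDC34, which is held by the RING protein RBX1 at the cullin CUL1. SKP1 ties the cullin to the F-box protein, which binds the substrate. The cullin is switched on by attachment of the ubiquitin-like protein NEDD8, and CAND proteins exchange the F-box subunits. In skeletal muscle, F-box proteins are best known for protein degradation in atrophy, and others bind substrates that range from cell cycle regulators to iron sensors.

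The data are RNA-seq of 8 TA muscles from 4 male C57BL/6J mice aged 3 months, collected 7 days after electroporation. The control leg of each mouse received non-targeting (NT) siRNAs and the contralateral leg *Uba1* siRNAs, each as a pool of 4 siRNAs, and the 2 legs of a mouse carry the same replicate number, 1 to 4. All NT muscles are right TA and all *Uba1* siRNA muscles are left TA, so the leg and the siRNAs cannot be told apart. Electroporation delivers siRNAs to whole muscle with no restriction to a cell type, and in whole muscle fewer cells of a type and less RNA per cell cannot be told apart. The treatment tags name UBA2, UBA3 and UBA4 in place of UBA1 for replicates 2, 3 and 4, and the groups were taken from the sample descriptions. Nothing more than the mouse numbers tells the replicates apart, and p-values measure the spread between these muscles.

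*Uba1* mRNA was at 59.0 to 63.6 TPM (transcript level per length, scaled to the same total in each muscle) with NT siRNAs and at 18.1, 6.77, 15.8 and 23.1 TPM in replicates 1 to 4 with *Uba1* siRNAs. The log2FC, here always the difference of mean log2(TPM + 1) of *Uba1* siRNAs minus NT siRNAs, was -1.98 (95% interval -2.63 to -1.32, limma, adjusted p = 0.0527). A limma fit that compares the legs within mice gave an adjusted p of 0.0278 for *Uba1*. *Uba3* was at 14.1 TPM in the muscle whose tag names UBA3 and at 13.7 TPM in the contralateral muscle. TPM keep no read totals, so the depth of each muscle is unknown. The *Uba1* siRNA muscles were not alike. Mitochondrial transcripts took 40.2% and 39.9% of the TPM in replicates 1 and 3 but 50.3% and 46.5% in replicates 2 and 4, beside 42.1% to 45.7% with NT siRNAs. The summed levels of 8 muscle fibre markers were 128374 to 139696 TPM with NT siRNAs and 98555 to 141759 TPM with *Uba1* siRNAs. The summed levels were 18.5 to 42.2 and 14.7 to 46.03 TPM for 7 leukocyte markers, 271 to 517 and 381 to 642 TPM for 4 fibroblast markers, and 89.7 to 125 and 102 to 124 TPM for 4 endothelial markers. Adipocyte markers summed to 7.51 to 14.3 and 1.32 to 11.1 TPM, and osteoblast markers to 9.18 to 15.7 and 11.4 to 41.2 TPM (3 genes each). Within every mouse the fibroblast sum was higher and the adipocyte sum lower with *Uba1* siRNAs, while the other sums given here went both ways. No marker was at 0 in all muscles, and the part of these values in the differences below was not tested.

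Because the median gene was itself higher with *Uba1* siRNAs, each difference below is read against all genes. Across the 11530 genes tested, the median log2FC was 0.11, and 81.8% of genes had a log2FC above 0. Median-ratio scaling, which sets the typical gene equal between muscles, moved the median to 0.0036. The scaling factors were 1.11 and 1.11 in replicates 1 and 3 with *Uba1* siRNAs and 0.947 to 0.987 in the other 6 muscles.

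The F-box family was expressed at low to moderate levels. A gene was tested if 4 or more muscles reached 1 TPM, and 41 of the 74 members were (13 *Fbxl*, 20 *Fbxo* and 8 *Fbxw*). Of these, 37 reached 1 TPM in 8 muscles and 4 in 7 muscles, so none passed through the level in 1 group alone. Their mean level was 10 TPM or more for 14 members and from 1 to 10 TPM for 27. The other 33 members were below this limit, with 18 at a mean above 0 but under 1 TPM and 15 listed at 0 in all 8 muscles.

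The members listed at 0 were *Fbxo43*, a meiotic regulator, and 14 *Fbxw* genes. These 14 lie side by side on chromosome 9 (GRCm39, chr9:108968515-109619738, 651 kb), a rodent cluster of closely related genes known from oocytes. Markers of germ cells (*Zp3*, *Ddx4* and *Dazl*) summed to at most 0.599 TPM in these muscles. Genes this alike share reads, and how the authors counted such reads is not stated in the sources used here, so a 0 there is a listed value only. *Fbxo5*, the mitotic inhibitor of the anaphase-promoting complex, was at 0.0967 to 0.483 TPM, and *Fbxl2*, which is also tied to growth control, at 0.320 to 0.671 TPM.

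The highest member by mean level was *Fbxw5*, which was at 48.9, 54.3, 50.4 and 51.7 TPM with NT siRNAs and at 56.2, 53.8, 55.3 and 53.1 TPM with *Uba1* siRNAs. *Fbxo31*, which binds cyclin D1, followed with a mean of 46.4 TPM over 8 muscles. The ranges of both overlapped, and in *Uba1* siRNA replicate 2 *Fbxo31* (55.6 TPM) was above *Fbxw5*. Then came *Fbxo3* (30.9 TPM), *Fbxw11* (28.3 TPM), which targets inhibitors of NF-kB and beta-catenin, and *Fbxo9* (26.9 TPM). *Fbxo6*, *Fbxo11* and *Fbxo22* had means of 20.02, 18.9 and 18.1 TPM. The ranges over muscles of *Fbxo3*, *Fbxw11* and *Fbxo9* overlapped, so these neighbours did not separate by level, whereas *Fbxo31* at its lowest (38.4 TPM) was above all values of *Fbxo3* (at most 35.7 TPM). Together the 5 highest members held 41.1% of the members' summed mean TPM. Those sums, 451 TPM over 74 genes, compare with 261 TPM for *Fbxo40* and *Fbxo32* alone, the muscle-enriched F-box genes that were set aside.

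**Figure D1:**
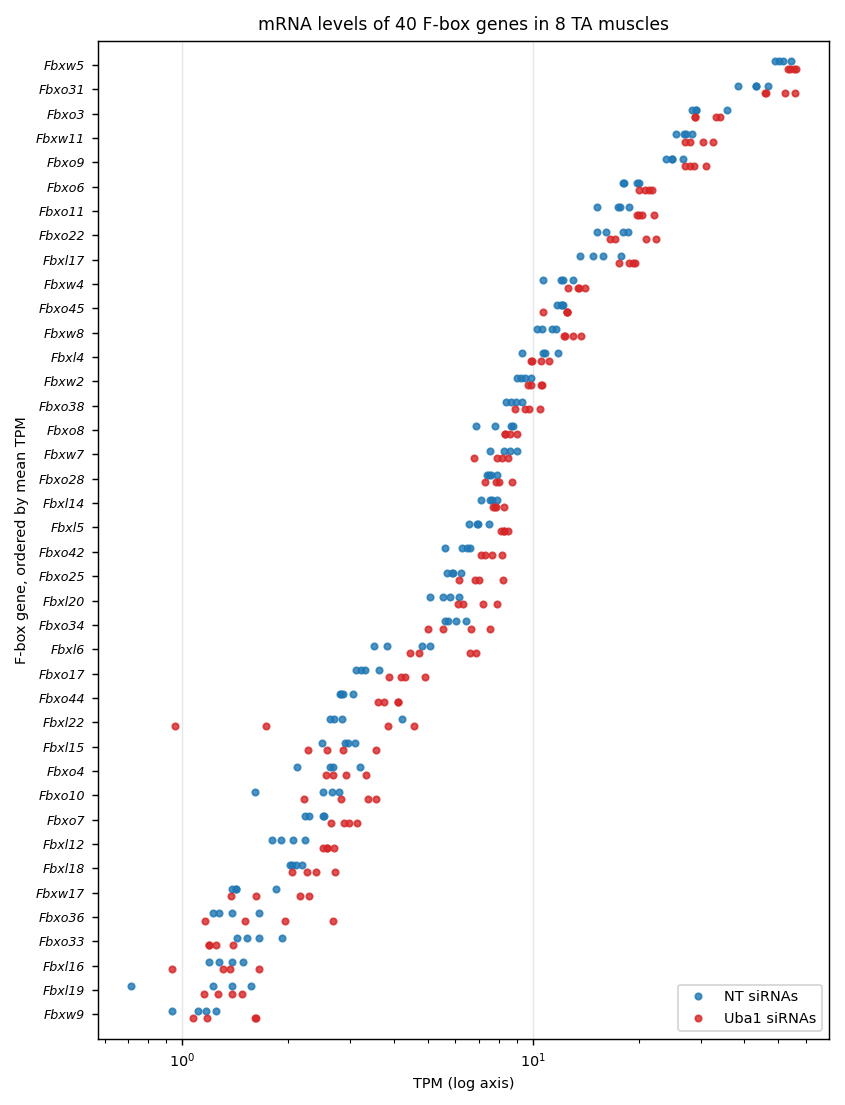
TPM (log axis) of 40 of the 41 tested F-box genes, ordered by their mean over 8 muscles, with blue points for the 4 muscles with NT siRNAs and red points for the 4 with *Uba1* siRNAs. Levels run from *Fbxw9*, near 1 TPM, to *Fbxw5*, near 53.0 TPM, and the red points of *Fbxl22* are spread the most.

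The comparison asked whether reduced *Uba1* mRNA came with other levels of F-box mRNAs. No member passed an adjusted p under 0.05 (limma with Benjamini-Hochberg adjustment over all genes, where 0.0260% of genes passed), and the smallest adjusted p was 0.129, for *Fbxo44*. The Kruskal-Wallis test gave 0 at that threshold too, but there no gene of the 11530 passed, since its smallest adjusted p over all genes was 0.180, *Uba1* included. At an unadjusted p under 0.05 in limma, 14 of the 41 tested members were higher with *Uba1* siRNAs (34.1%, with 16.0% of all genes tested) and 1 was lower (2.44%, with 1.98% of all genes tested). With the Kruskal-Wallis test, 15 were higher (36.6%, with 17.5% of all genes) and 1 was lower (2.44%, with 1.71% of all genes). The 14 were 14.6% to 34.7% higher in mean TPM, so the differences were small.

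The direction was shared by most members, and also by most genes. The log2FC was above 0 for 35 of the 41 and above the median of all genes for 25. The members' median log2FC was 0.15, which is 0.048 above that of all genes. It was above the all-gene median by 0.0095, 0.025, 0.065 and 0.024 in pairs 1 to 4. With median-ratio scaling the members' median was 0.043, 27 of 41 had a log2FC above 0 (51.4% of all genes), and 8 changed sign. No log2FC was beyond 0.58 in size, and for 39 of 41 members the 95% interval stayed within 0.58 of 0 on both sides. The exceptions were *Fbxl6* and *Fbxl22*. These intervals hold for log2(TPM + 1) only, where the added 1 TPM makes the differences of genes at few TPM smaller. With 0.1 TPM added in its place, the log2FC of *Fbxo44* and *Fbxo17* were 0.42 and 0.37, beside 0.33 and 0.30.

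The counts depended on the scaling. With median-ratio scaling, 3 members were higher at an unadjusted p under 0.05, *Fbxl12*, *Fbxo17* and *Fbxo44* (7.32%, with 4.57% of all genes), and 2 were lower, *Fbxo33* and *Fbxw7* (4.88%, with 6.11% of all genes). With quantile normalization, 3 were higher (4.45% of all genes) and 2 lower (5.16% of all genes). Without *Uba1* siRNA replicates 1 and 3, the muscles with the high scaling factors, 8 members were higher (19.5%, with 8.24% of all genes). There 1 was lower, *Fbxl22* and not *Fbxo33* (2.44%, with 6.24% of all genes). The difference between the members' share and that of all genes was not tested.

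**Figure D2:**
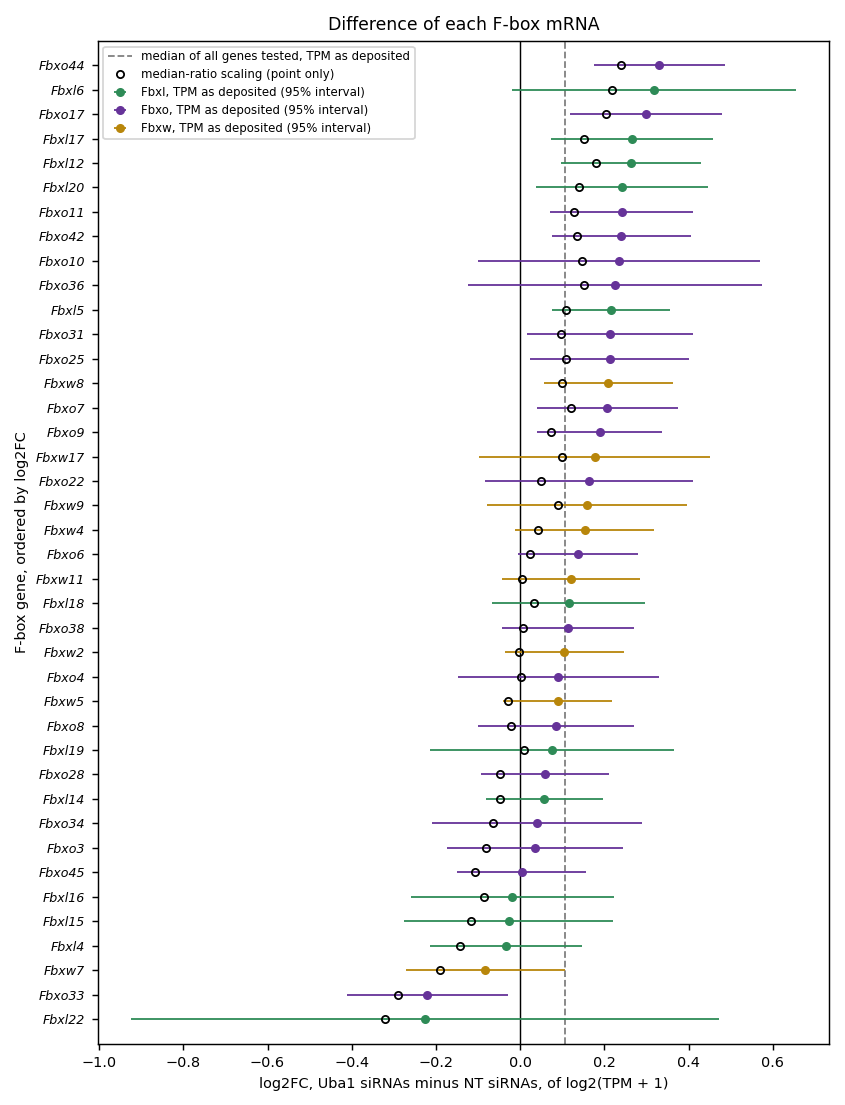
log2FC of log2(TPM + 1), *Uba1* siRNAs minus NT siRNAs, for 40 of the 41 tested F-box genes, ordered by size. Filled points with 95% intervals (limma, 4 muscles in each group) use TPM as deposited, open points use median-ratio scaling, and the dashed line is the all-gene median of 0.11. Scaling moves 8 genes from above 0 (filled points) to below it (open points).

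**Figure D3:**
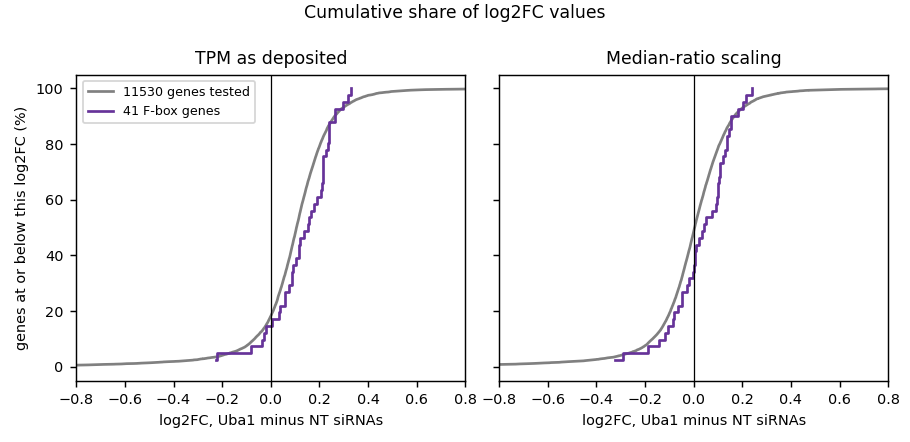
Cumulative share (%) of log2FC values, *Uba1* minus NT siRNAs, for the 41 F-box genes (purple) and the 11530 genes tested (grey), for TPM as deposited on the left and with median-ratio scaling on the right. The all-gene curve crosses its middle at 0.11 on the left and at 0.0036 on the right, and the F-box medians are 0.15 and 0.043.

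Counted muscle by muscle, the groups did not overlap for 10 members. The 4 *Uba1* siRNA muscles were all above the 4 NT muscles for *Fbxl5*, *Fbxl12*, *Fbxo7*, *Fbxo9*, *Fbxo11*, *Fbxo17*, *Fbxo42*, *Fbxo44* and *Fbxw8* (9 of 41, 22.0%, with 10.6% of all genes). They were all below for *Fbxo33* (2.44%, with 1.01% of all genes). An exact permutation test over 4 muscles against 4 cannot give a p below 0.0286 (two-sided), which groups that do not overlap always reach, so it adds nothing for these members. With median-ratio scaling the groups stayed apart for 3 of the 10, *Fbxo44* and *Fbxo17* on the higher side (2.88% of all genes) and *Fbxo33* on the lower (4.05% of all genes).

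The promoters of these 3 are shown because theirs were the groups that did not overlap on either scale. Each window runs from 250 bases before to 50 after a RefSeq start (build GRCm38.p6, 5′ to 3′ on the gene's strand), at chr4:148160045-148160344 (minus), chr7:28716532-28716831 (plus) and chr12:59219434-59219733 (minus). Capitals mark the GC box GGGCGG, searched on both strands, which reads CCGCCC when it lies on the other strand.
Fbxo44: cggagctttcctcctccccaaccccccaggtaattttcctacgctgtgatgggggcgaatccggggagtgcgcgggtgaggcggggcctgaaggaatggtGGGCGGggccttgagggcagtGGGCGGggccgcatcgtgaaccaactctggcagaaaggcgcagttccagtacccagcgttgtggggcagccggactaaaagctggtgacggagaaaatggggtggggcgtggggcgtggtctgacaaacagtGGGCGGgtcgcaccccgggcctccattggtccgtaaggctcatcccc
Fbxo17: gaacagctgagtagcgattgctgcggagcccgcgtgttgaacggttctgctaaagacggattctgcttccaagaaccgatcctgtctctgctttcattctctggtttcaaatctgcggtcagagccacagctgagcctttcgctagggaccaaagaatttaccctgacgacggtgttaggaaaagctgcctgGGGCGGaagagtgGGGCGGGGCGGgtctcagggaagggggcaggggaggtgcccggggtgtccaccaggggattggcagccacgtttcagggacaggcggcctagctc
Fbxo33: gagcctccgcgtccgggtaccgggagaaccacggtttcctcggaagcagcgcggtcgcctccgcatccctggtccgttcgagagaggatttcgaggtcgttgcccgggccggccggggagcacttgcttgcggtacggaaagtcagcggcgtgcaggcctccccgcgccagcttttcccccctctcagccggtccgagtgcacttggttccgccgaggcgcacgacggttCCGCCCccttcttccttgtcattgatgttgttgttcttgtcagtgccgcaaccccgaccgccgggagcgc
The RefSeq table holds 3 windows for *Fbxo44*, 2 for *Fbxo17* and 1 for *Fbxo33*, and the window listed earliest in it is shown. In the shown windows the GC box was found 3 times for *Fbxo44*, 3 times for *Fbxo17* with an overlap between matches, and once for *Fbxo33*. The other 2 windows of *Fbxo44* held 0 matches and the other window of *Fbxo17* held 3. It was in 56.0% of the 75 windows of members and in 35.7% of all 32851 windows of the table. The letters CCAAT, on either strand, were in 26.7% of the members' windows and 37.4% of all windows. Of the 74 members, 55 had a window.

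Among the F-box proteins with an FBA domain, 2 of the 3 tested were higher at an unadjusted p under 0.05, with 16.0% of all genes. The domain is known for recognizing sugar chains on glycoproteins in *Fbxo2* and *Fbxo6*, while *Fbxo44* carries it without being known as a sugar binder. *Fbxo44* (chr4:148236949-148245002 of GRCm39, minus strand) was at 3.06, 2.84, 2.81 and 2.87 TPM with NT siRNAs and at 4.12, 3.62, 3.75 and 4.11 TPM with *Uba1* siRNAs in replicates 1 to 4. The lowest *Uba1* siRNA muscle was above the highest NT muscle. Mean levels were 2.89 ± 0.114 and 3.90 ± 0.258 TPM (SD, n = 4 each), 34.7% higher, with a log2FC of 0.33 (95% interval 0.17 to 0.49). The unadjusted limma p of *Fbxo44* was 0.00094 and its adjusted p 0.129, and it was higher in 4 of 4 pairs. *Fbxo44* kept an unadjusted p under 0.05 in all 17 alternatives run on it.

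*Fbxo17* (chr7:28416126-28438137, plus strand) was at 3.63, 3.13, 3.24 and 3.31 TPM with NT siRNAs and at 4.91, 3.89, 4.32 and 4.19 TPM with *Uba1* siRNAs. The groups were again apart, and the pair of replicate 1 held the highest value of each group. Its log2FC was 0.30 (95% interval 0.12 to 0.48, limma, adjusted p = 0.162), and its unadjusted p also stayed under 0.05 in all 17 alternatives. *Fbxo6*, a binder of high-mannose chains and the most abundant of the group, was at 20.1, 18.1, 18.1 and 19.8 TPM with NT siRNAs and at 20.8, 21.4, 20.004 and 21.8 TPM with *Uba1* siRNAs. Its groups overlapped slightly, with a log2FC of 0.14 (95% interval -0.0060 to 0.28), and 0.023 with median-ratio scaling. *Fbxo2*, the form known from brain, stayed at 0.0492 to 0.409 TPM and *Fbxo27* at 0.0860 to 0.531 TPM, below the limit for testing.

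These 5 genes lie in 2 clusters. *Fbxo6*, *Fbxo44* and *Fbxo2* share 20.7 kb of chromosome 4 (chr4:148230170-148250881), with 305 bases between *Fbxo6* and *Fbxo44*. *Fbxo27* and *Fbxo17* share 51.2 kb of chromosome 7. *Fbxo44* and *Fbxo2* run on opposite strands and overlap by 410 bases, and since the library kit does not mark strand, reads in that stretch cannot be told apart. The near neighbours *Fbxo6* and *Fbxo44* had log2FC of 0.14 and 0.33, a difference that was not tested.

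**Figure D4:**
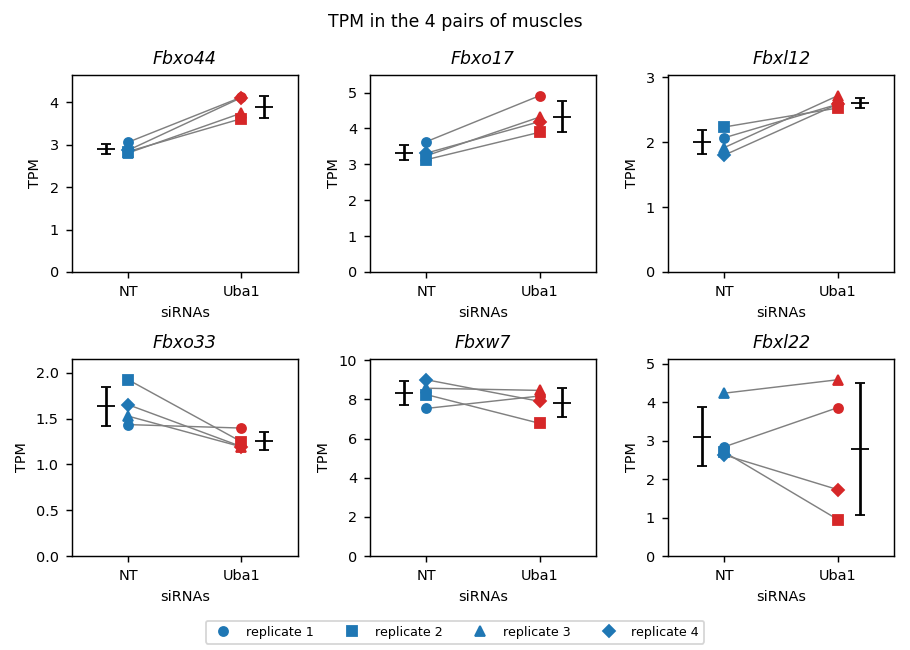
TPM of 6 F-box genes in the 4 pairs of legs, with grey lines joining the muscles of 1 mouse, marker shapes for replicates 1 to 4, blue for NT siRNAs, red for *Uba1* siRNAs, and bars beside them for the mean ± SD (n = 4). *Fbxo44*, *Fbxo17* and *Fbxl12* are higher and *Fbxo33* lower in 4 of 4 pairs, whereas the lines of *Fbxl22* go both ways.

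Among the *Fbxl* members, 5 of 13 tested were higher at an unadjusted p under 0.05 (16.0% of all genes) and none was lower (1.98% of all genes). With median-ratio scaling 1 of the 5, *Fbxl12*, was still higher at this threshold (4.57% of all genes). *Fbxl12*, which targets the cell cycle inhibitor Cdkn1c, was at 2.07, 2.23, 1.92 and 1.80 TPM with NT siRNAs and at 2.58, 2.53, 2.71 and 2.59 TPM with *Uba1* siRNAs. The 4 *Uba1* siRNA values lay close together and above all NT values. The log2FC was 0.26 (95% interval 0.098 to 0.43, limma, adjusted p = 0.165) and 0.18 with median-ratio scaling. The unadjusted p stayed under 0.05 in 16 of 17 alternatives, the exception being quantile normalization. *Fbxl12* (chr9:20521149-20556085, minus strand) overlaps *Fbxl12os* and *Ubl5* on the other strand, so reads in the shared stretches cannot be told apart. *Fbxl12os* was at 0.0488 to 0.184 TPM in these muscles.

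*Fbxl5*, the iron-responsive F-box protein that removes iron regulatory proteins, was at 6.93, 6.56, 6.96 and 7.51 TPM with NT siRNAs and at 8.08, 8.46, 8.25 and 8.26 TPM with *Uba1* siRNAs. Its groups were apart, and its log2FC of 0.21 (95% interval 0.075 to 0.35) became 0.11 with median-ratio scaling, where the unadjusted p was no longer under 0.05. *Fbxl17*, which inspects dimers of BTB proteins, was at 14.8, 13.6, 15.8 and 17.9 TPM with NT siRNAs and at 18.8, 19.2, 19.5 and 17.6 TPM with *Uba1* siRNAs. Pair 4 went against the other pairs. *Fbxl20*, also at an unadjusted p under 0.05, had a log2FC of 0.24 (95% interval 0.038 to 0.45). Its unadjusted p was 0.05 or more without NT replicate 2 or 4 or *Uba1* siRNA replicate 3 or 4, with log2FC from 0.18 to 0.29.

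*Fbxl22*, a sarcomeric F-box protein of the Z-disc, had the widest 95% interval of the 41 tested members. It was at 2.84, 2.70, 4.24 and 2.63 TPM with NT siRNAs and at 3.86, 0.951, 4.59 and 1.73 TPM with *Uba1* siRNAs. With *Uba1* siRNAs it was higher than in the contralateral leg in pairs 1 and 3 and lower in pairs 2 and 4. The log2FC was -0.23 (95% interval -0.92 to 0.47) and turned to 0.051 without *Uba1* siRNA replicate 2. The same muscles, replicates 2 and 4, had summed adipocyte markers of 1.32 and 2.39 TPM beside 10.7 and 11.1 TPM in replicates 1 and 3, and summed osteoblast markers of 38.8 and 41.2 TPM beside 11.4 and 17.9 TPM. With NT siRNAs the sums were 7.51 to 14.3 TPM for adipocyte and 9.18 to 15.7 TPM for osteoblast markers. Other sums with *Uba1* siRNAs were also lower in replicates 2 and 4 than in 1 and 3. Fibre markers were at 98555 and 114654 against 130301 and 141759 TPM, and leukocyte markers at 14.7 and 17.0 against 34.8 and 46.03 TPM. Fibroblast markers were at 381 and 450 against 567 and 642 TPM, and Schwann cell markers at 33.5 and 29.2 against 72.3 and 64.3 TPM. Satellite cell markers divided in the same way, but endothelial and germ cell markers did not. The part of these values in the spread of *Fbxl22* was not tested. *Fbxl22* overlaps *Herc1* on the opposite strand, so reads in the shared stretch cannot be told apart.

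Of the 4 tested members listed for the sarcomere and muscle, *Fbxl22* among them, *Fbxw8* and *Fbxo9* were higher at an unadjusted p under 0.05, with 16.0% of all genes. *Fbxw8*, which works with the cullin CUL7 and targets the insulin receptor substrate IRS1, was at 11.6, 10.3, 11.3 and 10.6 TPM with NT siRNAs and at 12.2, 13.0, 13.7 and 12.3 TPM with *Uba1* siRNAs. *Fbxo9*, which acts on regulators of mTOR, was at 23.8, 24.9, 24.9 and 26.8 TPM against 31.1, 28.8, 28.1 and 27.1 TPM. Neither pair of groups overlapped. Their log2FC of 0.21 and 0.19 were 0.10 and 0.073 with median-ratio scaling, where neither had an unadjusted p under 0.05. That of *Fbxo9* was 0.05 or more also without NT replicate 1, with log2FC from 0.15 to 0.22 over the muscles left out. *Fbxw5* had a log2FC of 0.089 (95% interval -0.040 to 0.22), which turned to -0.028 with median-ratio scaling.

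Of the 4 tested members listed for the cell cycle and growth, 1 was higher and none lower at an unadjusted p under 0.05. Of all genes, 16.0% and 1.98% were. The list does not hold every such member. *Fbxl12*, *Fbxw8* and *Fbxo9*, described above and higher at this threshold, are not on it. *Fbxo31* was at 43.2, 43.3, 38.4 and 46.7 TPM with NT siRNAs and at 45.7, 55.6, 46.2 and 52.3 TPM with *Uba1* siRNAs, and its groups overlapped. Its log2FC was 0.21 (95% interval 0.017 to 0.41), which ranged from 0.16 to 0.25 with 1 muscle left out. Its unadjusted p was 0.05 or more without NT replicate 1, 2 or 3 or *Uba1* siRNA replicate 2 or 4. *Fbxw7*, the tumor suppressor that degrades cyclin E, Myc and Notch, was at 7.54, 8.25, 8.57 and 9.01 TPM with NT siRNAs and at 8.18, 6.78, 8.46 and 7.90 TPM with *Uba1* siRNAs. It was higher in pair 1 and lower in the other 3 pairs, with a log2FC of -0.083 (95% interval -0.27 to 0.11, limma, unadjusted p = 0.346). With median-ratio scaling *Fbxw7* was at a log2FC of -0.19, with an unadjusted p under 0.05, and lower in 4 of 4 pairs. *Fbxw11* had a log2FC of 0.12 (95% interval -0.043 to 0.28) and *Fbxo4*, another binder of cyclin D1, of 0.090 (95% interval -0.15 to 0.33).

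Of the members tied to mitochondria, *Fbxo7*, a partner of the proteasome and of Parkin in mitophagy, was at 2.52, 2.54, 2.29 and 2.23 TPM with NT siRNAs and at 3.15, 2.66, 2.88 and 2.99 TPM with *Uba1* siRNAs. The groups were apart, with a log2FC of 0.21 (95% interval 0.040 to 0.37) and 0.12 with median-ratio scaling. The unadjusted p of *Fbxo7* was 0.05 or more without NT replicate 3 or 4 or *Uba1* siRNA replicate 1, with log2FC from 0.18 to 0.24. *Fbxl6* was at 5.08, 3.84, 4.83 and 3.52 TPM against 6.62, 4.45, 6.88 and 4.73 TPM. It was higher in 4 of 4 pairs on both scales, but its legs varied so much between mice that the unpaired log2FC of 0.32 had an interval of -0.020 to 0.65. With the replicate block its unadjusted p was under 0.05 on both scales, and its adjusted limma p for TPM as deposited was 0.0863. *Fbxl4*, which restrains mitophagy receptors and whose loss in people causes mitochondrial disease, had a log2FC of -0.035 (95% interval -0.22 to 0.15).

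Of the 3 tested members listed for chromatin and transcription, *Fbxo42* and *Fbxo11* were higher at an unadjusted p under 0.05, with 16.0% of all genes. The list does not hold every such member. *Fbxw7* and *Fbxw11*, described above and not higher at this threshold, are not on it. *Fbxo11*, which degrades the repressor Bcl6, was at 17.5, 15.2, 17.7 and 18.8 TPM with NT siRNAs and at 22.1, 19.8, 20.5 and 20.04 TPM with *Uba1* siRNAs. *Fbxo42*, known for binding Trp53, was at 6.46, 6.27, 5.60 and 6.61 TPM against 7.09, 7.29, 8.14 and 7.64 TPM. Neither pair of groups overlapped, and both log2FC were 0.24. With median-ratio scaling they were 0.14 for *Fbxo42* and 0.13 for *Fbxo11*, and neither had an unadjusted p under 0.05. *Fbxl19*, which binds CpG islands, had a log2FC of 0.075 (95% interval -0.21 to 0.36). *Fbxo25*, the closest relative of *Fbxo32*, had a log2FC of 0.21 (95% interval 0.024 to 0.40), and its unadjusted p was 0.05 or more without NT replicate 1, 2 or 3 or *Uba1* siRNA replicate 1 or 3, with log2FC from 0.15 to 0.27.

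*Fbxo33*, known for targeting the RNA-binding protein Ybx1, was the member that was lower at an unadjusted p under 0.05 (chr12:59247430-59266540, minus strand). It was at 1.43, 1.92, 1.53 and 1.65 TPM with NT siRNAs and at 1.40, 1.25, 1.19 and 1.19 TPM with *Uba1* siRNAs. All *Uba1* siRNA values were below all NT values, though in pair 1 by little. Means were 1.63 ± 0.213 and 1.26 ± 0.0963 TPM (SD, n = 4 each), with a log2FC of -0.22 (95% interval -0.41 to -0.030, limma, adjusted p = 0.232) and -0.29 with median-ratio scaling. With 0.1 TPM added in place of 1 TPM, the log2FC of *Fbxo33* was -0.35. The unadjusted p of *Fbxo33* was 0.05 or more without NT replicate 2 or 4 and without *Uba1* siRNA replicate 2, 3 or 4, and the log2FC stayed between -0.26 and -0.17. That p was 0.05 or more also without both *Uba1* siRNA replicates 1 and 3. *Fbxo33*, *Fbxl20* and *Fbxo25* were named after their values were seen.

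**Figure D5:**
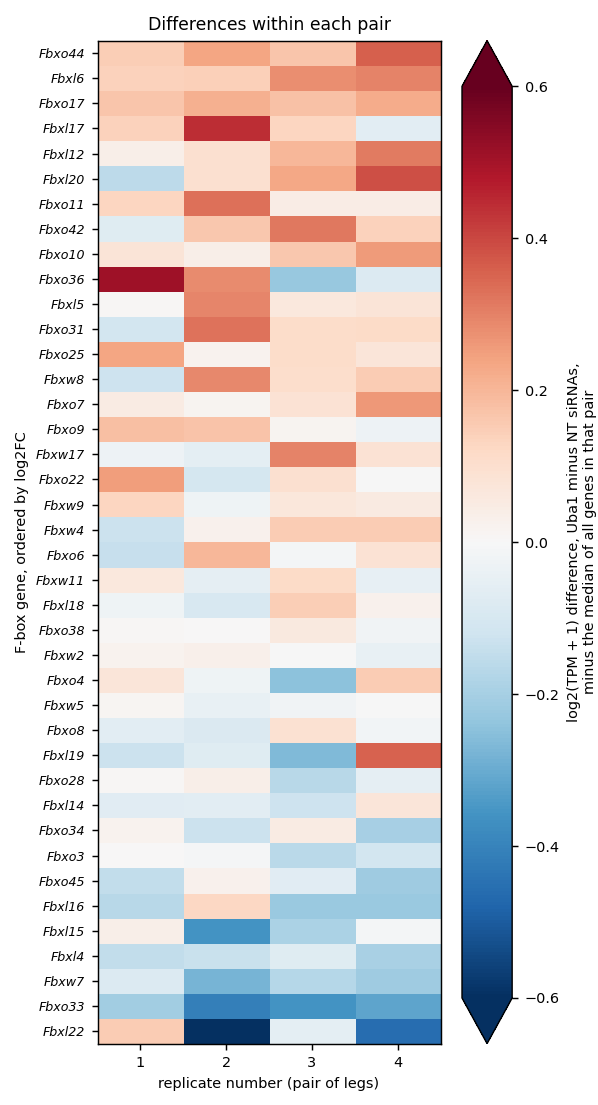
Difference of log2(TPM + 1), *Uba1* minus NT siRNAs, in each pair of legs (columns 1 to 4) after the median of all genes in that pair was subtracted, for 40 of the 41 tested F-box genes ordered by log2FC. Red is above and blue below the typical gene, colors end at 0.6 in size, and *Fbxo44* and *Fbxo17* at the top are red and *Fbxo33* near the bottom is blue in 4 of 4 pairs.

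Within pairs, 19 of the 41 members were higher in 4 of 4 pairs (46.3%, with 32.2% of all genes) and 1, *Fbxo33*, was lower in 4 of 4 (2.44%, with 2.98% of all genes). With median-ratio scaling, 9 were higher in 4 of 4 pairs (22.0%, with 12.0% of all genes) and 5 were lower (12.2%, with 13.1% of all genes). The 5 were *Fbxl4*, *Fbxo3*, *Fbxo33*, *Fbxw5* and *Fbxw7*. The pairs differed in how many members were higher, with 40, 27, 32 and 28 of 41 in pairs 1 to 4, while 83.3%, 56.1%, 81.8% and 61.8% of all genes were. With the replicate block, which compares legs within mice, 16 members were higher (22.4% of all genes) and 1 lower (2.80% of all genes) at an unadjusted limma p under 0.05, and 0 passed an adjusted p under 0.05. With the block and median-ratio scaling together, 4 were higher (7.19% of all genes) and 3 lower (8.47% of all genes).

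The summed TPM of the 74 members were 420, 425, 420 and 444 with NT siRNAs and 490, 462, 484 and 463 with *Uba1* siRNAs. The groups were apart on this scale. After division by the scaling factors the sums were 439, 449, 426 and 466 against 440, 476, 435 and 469. The groups then overlapped, while the sum with *Uba1* siRNAs was still the higher in 4 of 4 pairs. The F-box genes set aside were mixed in direction. *Fbxo21* was at 3.71 ± 0.330 and 4.93 ± 0.440 TPM, *Fbxo32* at 92.0 ± 8.04 and 119 ± 24.1 TPM, *Fbxo30* at 6.13 ± 0.779 and 5.36 ± 0.269 TPM, and *Fbxo40* at 157 ± 14.1 and 154 ± 15.02 TPM with NT and *Uba1* siRNAs (SD, n = 4 each).

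The partners of F-box proteins were, in the median, close to the typical gene. Of 33 SCF core and neddylation genes in the table, 32 were tested, and none passed an adjusted p under 0.05 (limma, TPM as deposited). At an unadjusted p under 0.05, 5 were higher (15.6%, with 16.0% of all genes) and 1 was lower (3.13%, with 1.98% of all genes), and their median log2FC of 0.095 was 0.011 below that of all genes. The Kruskal-Wallis test gave 7 of 32 higher (17.5% of all genes) and 1 lower (1.71% of all genes) at an unadjusted p under 0.05. The backbone itself did not reach this threshold. Mean levels with NT and *Uba1* siRNAs were 142 and 154 TPM for *Skp1*, 40.4 and 45.1 TPM for *Cul1*, 25.7 and 27.5 TPM for *Rbx1*, and 76.5 and 79.1 TPM for *Nedd8*. *Cdc34*, the E2 of SCF ligases and the most abundant gene of this list, was at 255 and 245 TPM.

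*Cand2*, the muscle-enriched exchange factor for F-box subunits, was at 50.3, 49.1, 51.4 and 47.9 TPM with NT siRNAs and at 62.3, 59.1, 68.2 and 57.4 TPM with *Uba1* siRNAs. The groups were apart by several TPM, with a log2FC of 0.31 (95% interval 0.15 to 0.46, limma, adjusted p = 0.137) and 0.19 with median-ratio scaling. Its paralog *Cand1* was at 3.63 and 3.93 TPM. *Dcun1d3*, a cofactor of cullin neddylation, was at 3.95, 3.81, 3.76 and 3.56 TPM with NT siRNAs and at 3.38, 2.58, 2.97 and 2.67 TPM with *Uba1* siRNAs. Its log2FC of -0.29 (95% interval -0.48 to -0.11) was -0.39 with median-ratio scaling, and the groups did not overlap. The adjusted limma p of *Dcun1d3* was 0.166 for TPM as deposited and 0.0549 with median-ratio scaling. With quantile normalization its unadjusted limma p was 9.3e-05. It was then among the 28 of 11530 genes that passed an adjusted p under 0.05. The other genes at an unadjusted p under 0.05 were *Ube2r2*, an E2 related to *Cdc34*, with a log2FC of 0.18, the cofactors *Dcun1d4* and *Dcun1d5* with 0.19 and 0.14, and *Nae1*, a subunit of the E1 for NEDD8, with 0.17. With the replicate block the unadjusted p of *Nae1* was 0.05 or more. None of these 4 had an unadjusted p under 0.05 with median-ratio scaling, where *Cand2* alone was higher (4.57% of all genes) and *Rnf7*, *Dcun1d3* and *Cdc34* were lower (6.11% of all genes).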

How the data were processed

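The authors prepared libraries with a kit that does not mark strand, sequenced paired ends, mapped the reads with CLC Genomics Workbench on GRCm39, and deposited TPM values by gene and muscle. Their gene annotation, filter on low values and counting of reads shared between genes are not given in the sources used here. All 8 columns were assigned to a sample, 4 in each group. TPM sum to 1000000 in each muscle, so abundant transcripts lower the values of all others, and read depth is unknown.

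Genes with 1 TPM or more in 4 or more muscles were tested as log2(TPM + 1) with limma 3.58.1 (R 4.3.3, lmFit and eBayes with a trend, no covariates), two-sided, with Benjamini-Hochberg adjustment over 11530 genes. The script was tested on simulated data.

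Same-numbered muscles come from 1 mouse, as the titles show. The deviations of same-numbered muscles from their group means correlated with r of -0.00037, 0.20, 0.58 and 0.54 across genes in pairs 1 to 4, and the fit with a replicate block was an alternative. The others were a pseudocount of 0.1, no filter, a mean of 5 TPM or more, median-ratio scaling with and without the block, quantile normalization, TPM without mitochondrial genes, the Kruskal-Wallis test, leaving out each muscle, and leaving out *Uba1* siRNA replicates 1 and 3, an alternative chosen after seeing the data.

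The members and gene lists were chosen with earlier results of these data known. The values of 1 tested member are not reported here, while counts over members include it. The genes named were *Uba1*, the 10 members with the smallest unadjusted p, the 8 with the highest mean TPM, the members of 7 role lists, and *Skp1*, *Cul1*, *Rbx1*, *Nedd8*, *Cdc34* and further genes of that list with an unadjusted p under 0.05. Positions come from GENCODE M39 (GRCm39), where all 74 members were found, and promoters from RefSeq (GRCm38.p6).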

Additional observations from a re-analysis of the deposited data

Results flagged for a closer look

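In groups of 4 muscles, a value was picked out when its gap to the nearest other muscle exceeded Dixon's 95% limit for the group's range. Such a gap was found in 4 of the 86 groups searched, where chance alone gives about 4.3. *Fbxo3* was at 35.7 TPM in NT replicate 4, above 28.4 to 29.2 TPM in the other NT muscles. *Fbxl22* was at 4.24 TPM in NT replicate 3, above 2.63 to 2.84 TPM in the others. *Dcun1d4* was at 3.56 TPM in NT replicate 3, below 4.05 to 4.14 TPM, and at 4.99 TPM in *Uba1* siRNA replicate 2, above 4.47 to 4.54 TPM.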

How the results depend on the processing

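No F-box gene passed an adjusted p under 0.05 in any of the limma alternatives run. The Kruskal-Wallis test passed no gene of the 11530, *Uba1* included, its smallest adjusted p being 0.180. The count of F-box genes higher at an unadjusted p under 0.05 was 14 and became 3 after median-ratio scaling, 3 after quantile normalization, 4 when the replicate block joined the scaling, and 8 without *Uba1* siRNA replicates 1 and 3. It was 16 with the replicate block (22.4% of all genes), which added *Fbxl6* and *Fbxo10*, and 10 to 14 with 1 muscle left out (1158 to 2044 of the 11530 genes). The count of lower F-box genes was 1 and became 0 among genes with a mean of at least 5 TPM (2.11% of all genes there), 2 after median-ratio scaling, 2 after quantile normalization and 3 when the replicate block joined the scaling. It was 0 or 1 of 41 with 1 muscle left out (1.52% to 2.45% of all genes), with 0 without NT replicate 2 or 4 or *Uba1* siRNA replicate 2, 3 or 4. The members' median minus that of all genes stayed above 0, from 0.024 to 0.060 with 1 muscle left out.

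Of the SCF core and neddylation genes, 5 were higher, and 1 after median-ratio scaling, 1 after quantile normalization, 1 when the block joined the scaling, and 3 without *Uba1* siRNA replicates 1 and 3. The count ranged from 3 to 8 with 1 muscle left out, in the same fits with 1158 to 2044 of all genes, at 3 without NT replicate 1, 2 or 3 or *Uba1* siRNA replicate 1 or 3. With the replicate block it was 5, without *Nae1* and with *Cops7b*. *Fbxo10* and *Cops7b* were named after their values were seen. Their count of lower genes, 1, became 0 at a mean of at least 5 TPM, 3 after median-ratio scaling, 2 when the block joined it, and 2 without *Uba1* siRNA replicates 1 and 3. With quantile normalization *Dcun1d3* passed an adjusted p under 0.05 (limma), on the lower side. The log2FC of *Uba1* passed an adjusted p under 0.05 (limma) in these alternatives. It was -1.98 among genes with a mean of at least 5 TPM, -2.06 after quantile normalization, -2.09 after median-ratio scaling, -1.996 without mitochondrial genes, -1.98 under the replicate block and -2.09 when block and scaling were joined. With 1 muscle left out it was -2.18 to -1.64 and passed without *Uba1* siRNA replicate 2 or 4.

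The log2FC changed sign for 11 named genes, and neither the reported values nor those that changed sign had an unadjusted p under 0.05. With median-ratio scaling, and with the block added, it was -0.028 for *Fbxw5*, -0.081 for *Fbxo3*, -0.00049 for *Skp1*, -0.026 for *Rbx1* and -0.084 for *Nedd8*. With quantile normalization it was -0.029 for *Fbxo3*, -0.028 for *Fbxo4*, -0.023 for *Fbxl19* and -0.030 for *Nedd8*. Without *Uba1* siRNA replicates 1 and 3 it was -0.0068 for *Fbxo22*, -0.0038 for *Fbxo4*, -0.013 for *Rbx1* and -0.16 for *Nedd8*. With 1 muscle left out it ranged from -0.0060 to 0.11 for *Fbxo3*, -0.46 to 0.051 for *Fbxl22*, -0.092 to 0.012 for *Fbxl4*, -0.045 to 0.15 for *Fbxl19*, -0.074 to 0.10 for *Nedd8* and -0.12 to 0.0046 for *Cdc34*. The cause was not tested. Of 655 alternative values for 37 named genes, 501 kept their direction and side of the threshold, 105 were no longer past it, 25 were newly past it and 24 changed sign. With 4 muscles against 4, 95% intervals of the members had a median half-width of 0.19 on the log2 scale, and the depth behind a TPM value is unknown.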

Other observations

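F-box genes that carry other names were looked at beside the members. Of 9 in the table, 5 were tested, and 0 had an unadjusted limma p under 0.05, with 16.0% of all genes higher and 1.98% lower. *Kdm2b* was lower at this threshold with median-ratio scaling (log2FC -0.15, with 6.11% of all genes lower), and *Fbh1* was higher with the replicate block (log2FC 0.19, higher in 4 of 4 pairs, with 22.4% of all genes higher). *Btrc*, which like *Fbxw11* recognizes beta-catenin, was at 2.64 ± 0.0774 TPM with NT siRNAs and 2.94 ± 0.220 TPM with *Uba1* siRNAs (SD, n = 4 each). *Lmo7*, a cytoskeletal protein of muscle with an F-box, was at 15.1 ± 1.28 and 17.0 ± 2.23 TPM, and *Fbh1*, a DNA helicase, at 10.8 ± 1.33 and 12.5 ± 2.38 TPM. The histone demethylases *Kdm2a* and *Kdm2b* were at 8.21 ± 0.0794 and 8.80 ± 0.827 TPM, and at 3.20 ± 0.234 and 3.02 ± 0.215 TPM. *Skp2* and *Ccnf*, F-box proteins of dividing cells, were at most at 0.395 and 0.268 TPM in any muscle.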
